A study of Mus musculus with 18 samples.

Results

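The genes of the cytoplasmic ribosomal proteins were examined for binding of Pitx1 and Tbx5 in mouse limb buds. Members were the protein-coding genes with a symbol of Rpl or Rps and a number, with or without the letter a, x, y or l, together with Rplp0, Rplp1, Rplp2 and Rpsa. This gave 84 of 21883 protein-coding genes, 52 of the large subunit and 32 of the small subunit, on 19 chromosomes. The family was chosen by measured values of these same lists, namely which summits fell to its genes, how many lay near gene ends, their scores and their presence in a second Pitx1 list. Binding was mapped by ChIP-seq, which sequences the DNA held by an antibody against the factor, in wild-type embryos of the outbred strain CD1. The Pitx1 sample was e11.5 hindlimb bud, where Pitx1 is the homeodomain factor that sets hindlimb identity. The Tbx5 sample was e10.5 forelimb bud, where Tbx5 is the T-box factor that starts forelimb outgrowth, and both antibodies were homemade. With 1 sample for each factor there is no error between replicates and no test was made. Factor, limb, stage and antibody differ together and cannot be told apart.

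Ribosomal proteins are assembled with ribosomal RNA into the small subunit, which decodes the messenger RNA, and the large subunit, which joins amino acids. Their genes are short, are active in nearly every cell, and are driven by promoters close to the transcription start, where transcripts begin in a run of pyrimidines that links their translation to growth signals. Rpl38 is known from a mouse mutant in which translation of Hox messenger RNAs and the axial skeleton are changed.

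The data were the summits, the highest points of the called peaks, on genome build mm10, each with the authors' own score, taken here to be −log10 q. Pitx1 had 54941 summits in its longer list (median score 7.07) and 17783 of these in its second list, while Tbx5 had 10273 (median score 8.29). Summits went to whichever protein-coding gene was closest, up to 100 kb away. Of the numbers in the peak names, 77.8% were present for Pitx1 and 60.4% for Tbx5. Read depth is unknown. Exact Clopper-Pearson 95% intervals are given for shares and exact Poisson intervals for densities, and they cover the counting of genes or summits only. Overlap of intervals does not show that the values are alike.

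Most ribosomal protein genes had a Pitx1 summit, and few had a Tbx5 summit. Pitx1 summits were assigned to 69 of the 84 genes, or 82.1% (95% interval 72.3 to 89.6), against 54.5% of all protein-coding genes. Tbx5 summits were assigned to 8 of the 84, or 9.52% (4.20 to 17.9), against 18.7% of all protein-coding genes. All 8 were among the 69 with Pitx1, and 16.8% of all protein-coding genes had summits of both factors. The 2 subunits were alike in the Pitx1 share, with 43 of 52 large-subunit genes (82.7%, 69.7 to 91.8) and 26 of 32 small-subunit genes (81.2%, 63.6 to 92.8). Since the family was chosen by these summits, the shares are descriptions.

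**Figure D1:**
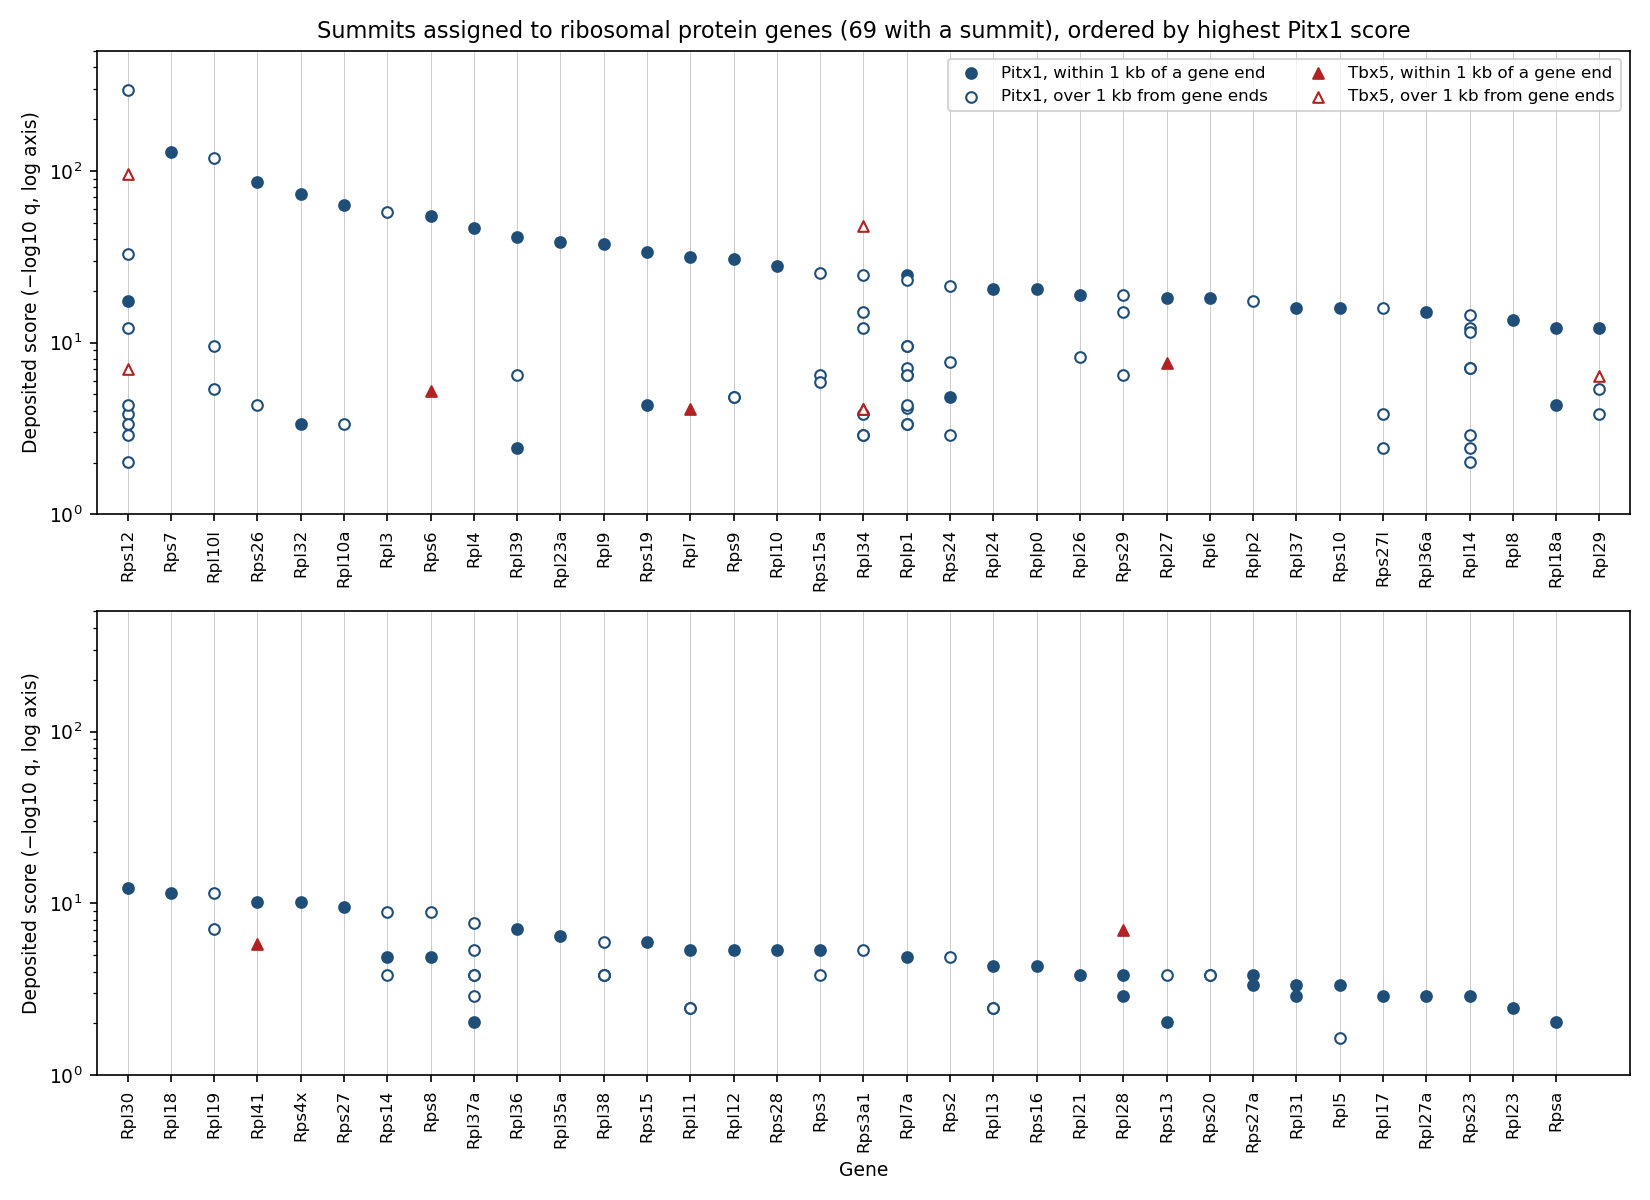
Deposited score (−log10 q, log axis) of each summit assigned to a ribosomal protein gene, with the 69 genes that have a summit ordered by their highest Pitx1 score. Circles are Pitx1 and triangles Tbx5, filled within 1 kb of the end of a protein-coding gene and open farther away. The highest point belongs to Rps12, at 296, and the last gene, Rpsa, has 1 point at 2.03.

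The assignment gave 145 Pitx1 and 11 Tbx5 summits to the family. Of the genes with Pitx1, 37 had 1 summit, 15 had 2, 10 had 3 and 7 had 4 or more. The domains of these genes, the stretches of sequence that would be assigned to them, were short, with a median of 12.2 kb (quartiles 5.63 and 25.1) against 45.1 kb for all protein-coding genes. The genes themselves had a median length of 3.18 kb, against 17.2 kb. Per length of domain, Pitx1 summits numbered 65.1 per Mb (54.9 to 76.6) at ribosomal protein genes and 23.4 per Mb (23.2 to 23.6) at other genes. The same density for Tbx5 was 4.94 per Mb (2.47 to 8.84) against 4.15 per Mb (4.06 to 4.24), so the Tbx5 interval held the value of the other genes. Among genes of like domain length, the Pitx1 share was higher for members in each class. The members' interval left out the share of other genes only under 30 kb. Among genes with a domain under 10 kb, 29 of 35 members (82.9%, 66.4 to 93.4) had a Pitx1 summit, against 31.0% (29.1 to 33.0) of other genes. From 10 to 30 kb the shares were 77.4% (58.9 to 90.4) and 36.9% (35.7 to 38.2). From 30 to 100 kb they were 87.5% (7 of 8, 47.3 to 99.7) and 55.6% (54.5 to 56.7). With a domain of 100 kb or more, the shares were 90.0% (9 of 10, 55.5 to 99.7) and 78.3% (77.2 to 79.3), and these intervals overlapped. For Tbx5 the direction changed with domain length. Under 10 kb, 8.57% of members (1.80 to 23.1) had a Tbx5 summit, against 3.77% of other genes. From 10 to 30 kb the shares were 9.68% (2.04 to 25.8) and 5.90%. From 30 to 100 kb, 0 of 8 members (0 to 36.9%) and 1089 of 7774 other genes had one. With 100 kb or more it was 2 of 10 members (2.52 to 55.6%), against 42.6%. Each of these Tbx5 intervals of members held the share of the other genes.

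Close to gene ends the Pitx1 summits were dense. Of the 145, 68 lay within 1 kb of an end of a protein-coding gene, or 46.9% (38.6 to 55.4), against 16.4% (16.0 to 16.7) of the Pitx1 summits assigned to other genes. In these stretches the density was 234 per Mb (182 to 297) for ribosomal protein genes and 92.7 per Mb (90.6 to 94.9) for other genes. Farther than 1 kb from gene ends it was 39.8 per Mb (31.4 to 49.7) against 20.4 per Mb (20.2 to 20.6). Of the 68, 12 also lay within 1 kb of an end (start or stop) of a neighbouring gene. At Rpl4 the nearest end of the neighbour Zwilch is 159 bp from the summit, and at Rpl9 that of Lias is 67 bp away. For these the gene to which the summit belongs cannot be told. Counted whatever gene was nearer, a Pitx1 summit lay within 1 kb of an own end of 62 of 84 members, or 73.8% (63.1 to 82.8), against 32.1% of all protein-coding genes.

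The summits near gene ends lay at the start of the gene. RefSeq starts and strands were at hand for 64 of the 84 members. Of 49 Pitx1 summits within 1 kb of an own end of these genes, 48 were within 1 kb of a start, or 98.0% (89.1 to 99.9), against 83.1% (82.1 to 84.1) at other genes. Because members are short, a summit can be near both ends, but 47 of the 49 lay nearer to the start (95.9%, against 87.9% at other genes). The 48 were spread evenly around the start, 24 before and 24 at or after it, with a median offset of -4 bp and quartiles of -185 and 217 bp. In the window from 250 bases before the start to 50 after it, 28 of 64 members had a Pitx1 summit, or 43.8% (31.4 to 56.7), against 13.3% of all protein-coding genes with such a window. Whether a summit fell in an exon or an intron was not analysed here.

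**Figure D2:**
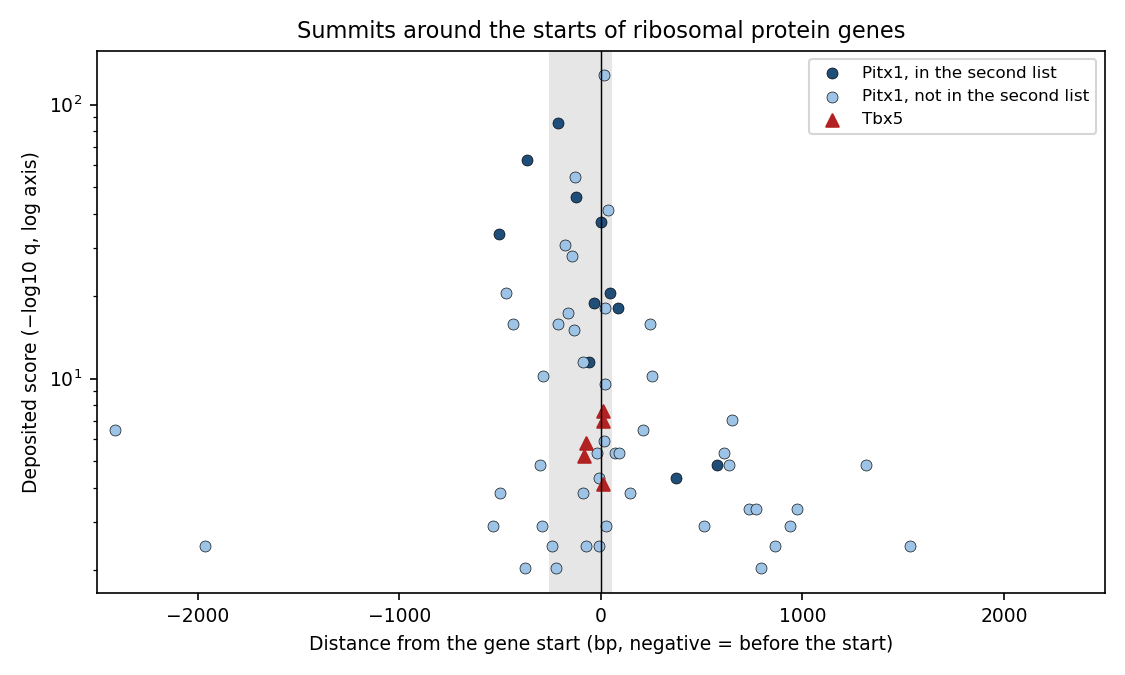
Summits assigned to ribosomal protein genes with a listed start, by distance from that start along the gene (bp) and deposited score (−log10 q, log axis). Dark circles are Pitx1 summits in the second list, light circles other Pitx1 summits, triangles Tbx5, and the grey band is the promoter window of 300 bases. Summits farther from the start than the axis reaches, such as that of Rps12 at 296, are not drawn. The highest point drawn is that of Rps7 at 128. The 5 Tbx5 summits in view each lie within 100 bp of the start of their own gene.

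The promoter windows with the 5 highest Pitx1 scores are shown because they hold the highest-scoring summits found inside the windows of the 64 members that have one. Higher-scoring summits outside such windows, as at Rpl32 and Rpl10a, are given further on. The sequences are RefSeq's on GRCm38.p6, the assembly of mm10, 5′ to 3′ along the gene, with the start after the first 250 bases. Capitals mark matches to TAATCC (Pitx1 and other bicoid-type homeodomains), AGGTGT (T-box factors), CCGGAAG (Ets-type factors) and GCATGCG (Nrf1) on either strand, and to the pyrimidine runs CTTTCC and CTTTTC on the gene's own strand.
Rps7, chr12:28635904-28636203, minus strand: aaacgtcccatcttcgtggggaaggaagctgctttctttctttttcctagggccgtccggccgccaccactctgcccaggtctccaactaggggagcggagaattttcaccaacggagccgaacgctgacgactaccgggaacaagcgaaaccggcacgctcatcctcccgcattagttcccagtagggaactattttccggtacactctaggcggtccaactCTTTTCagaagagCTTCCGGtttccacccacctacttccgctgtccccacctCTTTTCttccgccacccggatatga
Rps26, chr10:128626457-128626756, minus strand: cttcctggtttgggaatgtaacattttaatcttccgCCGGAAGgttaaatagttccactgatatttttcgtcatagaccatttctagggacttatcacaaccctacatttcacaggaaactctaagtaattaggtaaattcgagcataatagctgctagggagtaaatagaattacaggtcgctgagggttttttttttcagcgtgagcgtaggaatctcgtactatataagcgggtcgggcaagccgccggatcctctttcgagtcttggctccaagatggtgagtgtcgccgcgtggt
Rps18, chr17:33955616-33955915, minus strand: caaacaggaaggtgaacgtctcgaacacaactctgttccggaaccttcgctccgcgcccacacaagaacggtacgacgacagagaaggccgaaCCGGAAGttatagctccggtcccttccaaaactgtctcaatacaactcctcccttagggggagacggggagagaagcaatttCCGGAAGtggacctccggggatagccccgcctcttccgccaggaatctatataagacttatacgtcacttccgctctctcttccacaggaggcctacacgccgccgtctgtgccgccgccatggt
Rps6, chr4:86857318-86857617, minus strand: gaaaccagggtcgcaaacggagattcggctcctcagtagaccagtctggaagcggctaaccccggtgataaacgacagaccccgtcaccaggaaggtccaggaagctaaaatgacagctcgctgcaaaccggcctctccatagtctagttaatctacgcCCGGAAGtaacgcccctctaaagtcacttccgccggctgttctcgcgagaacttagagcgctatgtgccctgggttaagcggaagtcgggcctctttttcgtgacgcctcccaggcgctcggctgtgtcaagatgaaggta
Rpl4, chr9:64173137-64173436, plus strand: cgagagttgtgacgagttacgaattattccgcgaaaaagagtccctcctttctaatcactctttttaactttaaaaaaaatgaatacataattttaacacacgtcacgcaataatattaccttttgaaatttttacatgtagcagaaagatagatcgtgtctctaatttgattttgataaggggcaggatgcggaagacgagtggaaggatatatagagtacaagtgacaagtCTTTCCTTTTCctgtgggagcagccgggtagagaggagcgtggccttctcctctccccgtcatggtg

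None of these 5 windows held TAATCC or its complement. The summit of Rps7, a small-subunit protein, lay 16 bp after the start at position 28635937 (score 128), and CCGGAAG on the opposite strand began 14 bases before the start. At Rps26 the summit was 210 bp before the start (score 85.7), beside a CCGGAAG that began 214 bases before it. The window of Rps18 held 2 copies of CCGGAAG and a summit 198 bp before the start (score 60.8), which was assigned to the neighbour Vps52 and not to Rps18. Rps6, the ribosomal protein phosphorylated by S6 kinase, had its summit 127 bp before the start (score 54.4). Rpl4, of the large subunit, had its summit 124 bp before the start (score 46.2) and a stretch in which CTTTCC and CTTTTC overlap, from 17 bases before it. A match is a description of letters and shows no binding site.

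Over all windows of the family, the Pitx1 letters were no more frequent than elsewhere. TAATCC was in 2 of 29 member windows with a Pitx1 summit (6.90%, 0.846 to 22.8) and in 2 of 47 without one (4.26%, 0.520 to 14.5), and 6.42% of all windows held it. The 2 with a summit were those of Rpl9 (score 37.3) and Rps9 (score 30.8). Among windows of other genes it was in 12.5% (11.2 to 13.9) of those with a Pitx1 summit and 5.62% (5.30 to 5.96) of those without. CCGGAAG was in 27 of 76 member windows (35.5%, 24.9 to 47.3), against 11.6% of all windows. It was in 41.4% (23.5 to 61.1) of member windows with a Pitx1 summit and 31.9% (19.1 to 47.1) of those without, and these intervals overlapped. At other genes CCGGAAG was more frequent with a Pitx1 summit, in 665 of 2460 windows (interval 25.3 to 28.8%). Without one it was in 1766 of 18726 (9.02 to 9.86%). A CTTTCC or CTTTTC beginning within 20 bases of the start was found in 15 of 76 member windows (19.7%), against 3.40% (3.16 to 3.65) of other windows. GCATGCG was in 5 of 76 (6.58%, 2.17 to 14.7), against 4.43% (4.15 to 4.71). The median share of G and C was 57.8% in member windows and 56.3% in those of other genes.

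Pitx1 scores at the family had a lower median than those at other genes and the same quartiles. The 145 summits had a median of 5.37 (quartiles 3.83 and 14.4, range 1.64 to 296), against a median of 6.49 (quartiles 3.83 and 14.4) for summits assigned to other genes. Within 1 kb of gene ends the median was 5.65 (quartiles 3.71 and 18.3) for members and 6.49 (3.83 and 12.9) for other genes. Of the members' summits near gene ends, 33.8% had a score of 15.1, the upper quartile of the list, or above, against 21.3% of those of other genes. Below the lower quartile of 3.83 were 25.0% and 19.7%.

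Among small-subunit genes the high scores near starts were those of Rps7, Rps26 and Rps6 given above, followed by Rps19 (33.6, 504 bp before the start) and Rps9 (30.8, 177 bp before it). Rps19, a gene mutated in Diamond-Blackfan anaemia, had a second summit with a score of 4.32. Rpsa, which encodes the small-subunit protein also known as the laminin receptor, had 1 summit with a score of 2.03, near the bottom of the list. Rps27a, which encodes a fusion of ubiquitin and a ribosomal protein, had 2 summits, with scores of 3.83 and 3.35, both also within 1 kb of an end of Clhc1.

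Among large-subunit genes, the summit of Rpl32 (chromosome 6, 115805514 to 115808743) scored 73.0 and lay 149 bp outside the gene, at 115808892. Rpl10a had one with a score of 63.0, 367 bp before the start, and Rpl39, on the X chromosome, one with a score of 41.2, 34 bp after it. The summit of Rpl3, a protein close to the peptidyl transferase centre, scored 57.6 and lay inside the gene, 2524 bp from its nearest end. The stalk of the large subunit, which recruits translation factors, is built of Rplp0, Rplp1 and Rplp2. Rplp0 had 1 summit (score 20.5, 469 bp before the start), and Rplp2 had 1 (score 17.4, over 1 kb from gene ends). A further summit within 1 kb of an own end of Rplp2 was assigned to a neighbour. Rplp1 had 11, the highest with a score of 24.7, 161 bp outside the gene.

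Many summits far from gene ends went to members with wide gaps around them, as assignment by distance gives longer domains more such summits. The 10 members with domains of 100 kb or more held 47 of the 77 Pitx1 summits over 1 kb from gene ends, and the other 74 members held 30. These counts were not set against domain length. Among these 10, Rplp1 held 10 such summits, Rps12 and Rpl14 8 each, Rpl34 5 and Rpl38 4. Rpl37a, with a domain of 63.2 kb, also held 4. The highest Pitx1 score of the family, 296, rank 118 in the list, lay 74.0 kb outside Rps12 at chromosome 10 position 23711135, and the next nearest gene was Slc18b1 at 85.7 kb. Rpl10l, an intronless copy of Rpl10 used in the testis, had its highest summit, with a score of 119, 25.3 kb outside the gene at chromosome 12 position 66309743. These distal summits go to ribosomal protein genes by distance alone. The farthest one assigned lay 99.6 kb outside Rpl38 with a score of 3.83, and the nearest one left out lay just past 100 kb from the same gene with a score of 8.90.

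The second Pitx1 list kept few of the family's summits. It held 30 of the 145, or 20.7% (14.4 to 28.2), against 31.0% (30.5 to 31.4) of summits assigned to other genes. Near gene ends it held 21.2% (20.3 to 22.2) of the summits of other genes and 19.1% (10.6 to 30.5) of those of members, and these intervals overlapped. Farther away it held 32.9% (32.4 to 33.4) and 22.1% (13.4 to 33.0). With scores of 15.1 and above, 9 of 23 summits of members near gene ends were kept (39.1%, 19.7 to 61.5), against 54.1% (51.6 to 56.6) for other genes near ends and 77.9% (77.0 to 78.7) for other genes farther away. Members' distal summits with such scores were kept in 10 of 13 cases (76.9%). The 14 near gene ends that were not kept included the summit of Rps7, at 128, and those of Rps6 (54.4), Rpl39 (41.2), Rpl23a (38.3), Rpl7 (31.7), Rps9 (30.8) and Rpl10 (28.1). The 9 that were kept were those of Rps26, Rpl32, Rpl10a, Rpl4, Rpl9, Rps19, Rpl24, Rpl26 and Rpl27. No source used here says how the second list was made.

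With the second list the share of ribosomal protein genes with a Pitx1 summit was 25.0% (16.2 to 35.6), against 26.2% of all protein-coding genes. The summits kept near gene ends had densities of 44.7 per Mb (23.8 to 76.5) for members and 19.7 per Mb (18.7 to 20.7) for other genes. Within 1 kb of an own end, 15.5% of members (8.51 to 25.0) had a second-list summit, against 7.83% of all protein-coding genes. That share was 12.8% for mitochondrial ribosomal protein genes, 12.8% for proteasome subunit genes and 12.5% for genes of translation initiation factors. All of these lay inside the interval of the members.

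**Figure D3:**
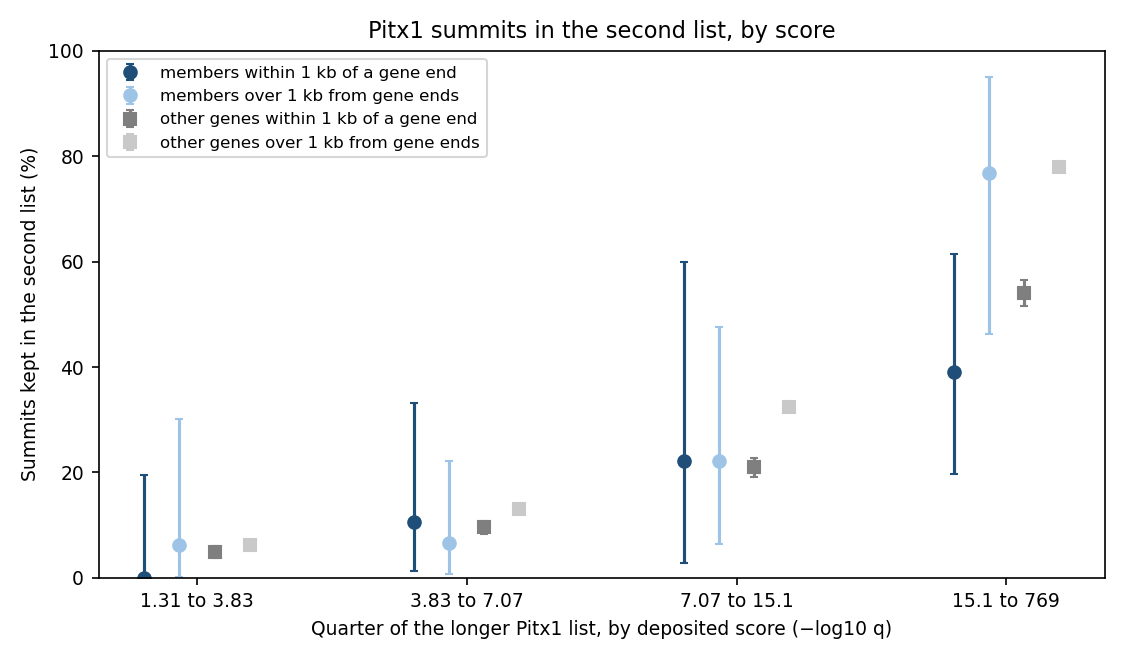
Share of Pitx1 summits (%) that are in the second list, by score, in 4 ranges set at the quartiles of the longer list, for summits of ribosomal protein genes (members, circles) and of other genes (squares), near gene ends and farther away. Bars are exact 95% intervals. In the highest range, 39.1% of members' summits near gene ends were kept, against 76.9% of their distal summits.

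Tbx5 binding in the forelimb touched 8 members, 6 of them near a gene end. Near gene ends lay 6 of the 11 Tbx5 summits, or 54.5% (23.4 to 83.3), against 9.56% (8.92 to 10.2) of those of other genes. Per length of these stretches the density was 20.7 per Mb (7.58 to 45.0) for members. For other genes it was 9.58 per Mb (8.91 to 10.3), a value inside the members' interval. The scores of the 6 were 7.64 at Rpl27, 7.02 at Rpl28, 5.81 at Rpl41, 5.23 at Rps6 and 4.13 at both Rpl34 and Rpl7, all below the list's median of 8.29. The 5 with a listed start lay within 100 bp of it. Within 1 kb of an own end, 6 of 84 members (7.14%, 2.67 to 14.9) had a Tbx5 summit, against 3.78% of all protein-coding genes, which the interval held. In the promoter window it was 5 of 64 (7.81%, 2.59 to 17.3), against 1.70%. For mitochondrial ribosomal protein genes these 2 shares were 8.97% (3.68 to 17.6) and 4.35% (0.906 to 12.2). For proteasome subunit genes they were 2.56% and 3.12%, and for genes of translation initiation factors 3.57% and 0%. The remaining Tbx5 summits were distal, 2 near Rps12 (96.0 and 7.02), 2 near Rpl34 (47.8 and 4.13) and 1 near Rpl29 (6.40). The windows of the other 4 members with a Tbx5 summit, beside that of Rps6 above, were these, with matches in capitals as before.
Rpl27, chr11:101441995-101442294, plus strand: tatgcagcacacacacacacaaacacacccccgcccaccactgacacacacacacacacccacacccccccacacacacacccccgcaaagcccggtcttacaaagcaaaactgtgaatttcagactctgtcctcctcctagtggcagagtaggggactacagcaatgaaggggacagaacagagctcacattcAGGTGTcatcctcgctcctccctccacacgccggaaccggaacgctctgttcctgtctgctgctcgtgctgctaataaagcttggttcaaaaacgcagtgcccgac
Rpl28, chr7:4792715-4793014, plus strand: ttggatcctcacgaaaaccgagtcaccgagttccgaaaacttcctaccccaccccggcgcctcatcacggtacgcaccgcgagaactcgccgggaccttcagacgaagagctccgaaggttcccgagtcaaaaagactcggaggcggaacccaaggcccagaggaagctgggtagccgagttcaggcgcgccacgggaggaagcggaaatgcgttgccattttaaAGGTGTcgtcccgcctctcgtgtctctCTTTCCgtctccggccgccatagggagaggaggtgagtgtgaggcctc
Rpl41, chr10:128549119-128549418, minus strand: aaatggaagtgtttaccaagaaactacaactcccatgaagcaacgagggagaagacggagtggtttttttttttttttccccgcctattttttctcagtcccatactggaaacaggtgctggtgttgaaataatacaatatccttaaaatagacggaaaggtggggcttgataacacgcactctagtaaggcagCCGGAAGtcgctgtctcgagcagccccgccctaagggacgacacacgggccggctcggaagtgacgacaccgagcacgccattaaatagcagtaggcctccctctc
Rpl34, chr3:130730288-130730587, minus strand: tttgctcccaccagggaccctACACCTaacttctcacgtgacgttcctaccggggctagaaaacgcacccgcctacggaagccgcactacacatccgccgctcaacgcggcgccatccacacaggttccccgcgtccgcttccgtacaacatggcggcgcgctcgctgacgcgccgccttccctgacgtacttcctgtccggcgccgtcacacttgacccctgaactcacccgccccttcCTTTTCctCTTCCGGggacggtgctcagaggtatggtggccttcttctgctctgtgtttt

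AGGTGT was in 3 of the 5 windows with a Tbx5 summit (60.0%, 14.7 to 94.7), those of Rpl27, Rpl28 and Rpl34, and 12.7% of all windows held it. At Rpl28 it began 25 bases before the start and the summit lay 11 bp after the start. At Rpl27 it began 56 bases before the start, with the summit 10 bp after it. At Rpl34 it lay on the opposite strand from 229 bases before the start, with the summit 12 bp after the start. Among other genes, 23.0% (18.4 to 28.1) of windows with a Tbx5 summit held the letters and 12.5% (12.1 to 13.0) of those without. CCGGAAG was also in 3 of the 5 windows (60.0%, 14.7 to 94.7), those of Rps6, Rpl41 and Rpl34, and in 11.6% of all windows. At other genes CCGGAAG was in 23.0% (18.4 to 28.1) of windows with a Tbx5 summit and 11.3% (10.9 to 11.7) of those without.

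Most Tbx5 summits of the family lay beside a Pitx1 summit. Of the 11, 6 had a Pitx1 summit within 200 bp (54.5%, 23.4 to 83.3), against 38.4% (37.3 to 39.5) of Tbx5 summits at other genes, and the intervals overlapped. The pair near Rps12 was 57 bp apart, with scores of 96.0 for Tbx5 and 296 for Pitx1. Near gene ends, the pair at Rps6 was 44 bp apart (5.23 and 54.4), that at Rpl7 58 bp (4.13 and 31.7), that at Rpl27 74 bp (7.64 and 18.1) and that at Rpl34 49 bp (4.13 and 2.89). The pair at Rpl41 missed the limit at 210 bp. With the second Pitx1 list, 18.2% (2.28 to 51.8) were shared. Conversely, 6 of the 145 Pitx1 summits (4.14%, 1.53 to 8.79) had a Tbx5 partner, against 6.79% (6.56 to 7.03) at other genes.

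Of the 84 members, 15 had no summit of either factor. The 7 copies with l in the symbol, which encode variants of another ribosomal protein, made up 5 of the 15, namely Rpl39l, Rpl22l1, Rpl7l1, Rpl3l and Rpl32l, and 2 of these 7 had a summit (28.6%, 3.67 to 71.0). Of the other 77 members, 67 had one (87.0%, 77.4 to 93.6). The copies with a summit were Rpl10l and Rps27l, with 3 each, all over 1 kb from the ends of genes. Of those of Rps27l, the highest (score 15.8) lay 212 bp before a start listed inside the gene. The other genes without a summit included Rpl15, Rpl22, Rpl35, Rpl13a, Rps18, Rps21 and Rps25. Of the 15, 3 had a Pitx1 summit within 1 kb of an own end that was assigned to a neighbour, namely Rps18, Rps25 and Rpl3l. For 12 of the 15, peak numbers were missing between the nearest listed summits on both sides, so whether a called peak lay there is unknown. The same held for 52 of the 69 genes with a summit. The windows of Rps15a and Rpl10l are shown as those of the members with the longest domains that had no summit within 1 kb of an own end.
Rps15a, chr7:118116098-118116397, minus strand: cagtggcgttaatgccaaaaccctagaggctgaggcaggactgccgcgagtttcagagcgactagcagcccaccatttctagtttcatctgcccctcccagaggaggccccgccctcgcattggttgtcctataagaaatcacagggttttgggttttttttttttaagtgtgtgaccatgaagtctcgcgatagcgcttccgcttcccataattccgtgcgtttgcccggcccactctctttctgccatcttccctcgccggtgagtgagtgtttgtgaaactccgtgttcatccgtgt
Rpl10l, chr12:66284352-66284651, minus strand: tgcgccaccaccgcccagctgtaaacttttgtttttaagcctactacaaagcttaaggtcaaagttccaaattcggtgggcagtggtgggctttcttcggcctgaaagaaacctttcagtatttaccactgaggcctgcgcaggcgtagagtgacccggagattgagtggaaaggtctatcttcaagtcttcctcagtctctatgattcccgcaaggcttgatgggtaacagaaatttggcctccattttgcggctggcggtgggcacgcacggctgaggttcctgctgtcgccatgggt

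Neither window held any of the letters searched. Rps15a (chromosome 7, 118104374 to 118116147) had 3 Pitx1 summits in its domain, the highest 78.1 kb outside the gene with a score of 25.5.

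Other families active in nearly every cell were set beside the ribosomal protein genes. A Pitx1 summit lay within 1 kb of an own end of 41 of 78 mitochondrial ribosomal protein genes (52.6%, 40.9 to 64.0), 21 of 39 proteasome subunit genes (53.8%, 37.2 to 69.9) and 32 of 56 genes of translation initiation factors (57.1%, 43.2 to 70.3). The interval of each overlapped the 63.1 to 82.8 of the ribosomal protein genes, that of the mitochondrial family only up to 64.0. Each interval lay above the 32.1% of all protein-coding genes. In the promoter window the shares were 34.8% (23.7 to 47.2), 37.5% (21.1 to 56.3) and 31.8% (18.6 to 47.6), again overlapping that of the ribosomal protein genes. Of the Pitx1 summits within 1 kb of a start, 67.9% of the mitochondrial family's lay within 100 bp of it, against 35.4% for the ribosomal protein genes and 22.7% for other genes. The same share was 17.6% for the proteasome subunits and 15.4% for the initiation factors. Per length of domain, Pitx1 summits were denser at the ribosomal protein genes, with 65.1 per Mb (54.9 to 76.6). The mitochondrial family had 38.0, the proteasome 30.9 and the initiation factors 28.2 per Mb, each with its interval below 54.9. Within 1 kb of gene ends the densities were 137 (95.8 to 189), 152 (95.2 to 230) and 188 per Mb (133 to 258), in the same order. Each of these intervals overlapped the 182 to 297 of the ribosomal protein genes. Farther away they were 27.7, 16.9 and 16.6 per Mb, against 39.8 (31.4 to 49.7). There only the interval of the mitochondrial family overlapped that of the ribosomal protein genes. A Pitx1 summit was assigned to 82.1% of ribosomal protein genes (72.3 to 89.6) and 53.8% of proteasome genes (37.2 to 69.9). The share was 61.5% (49.8 to 72.3) for the mitochondrial family and 66.1% (52.2 to 78.2) for the initiation factors. Of all Pitx1 summits assigned to each family, the share within 1 kb of a gene end was 34.0% (25.0 to 43.8) for the mitochondrial family, 51.2% (35.5 to 66.7) for the proteasome and 45.2% (34.3 to 56.5) for the initiation factors, and each interval overlapped the 38.6 to 55.4 of the ribosomal protein genes.

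**Figure D4:**
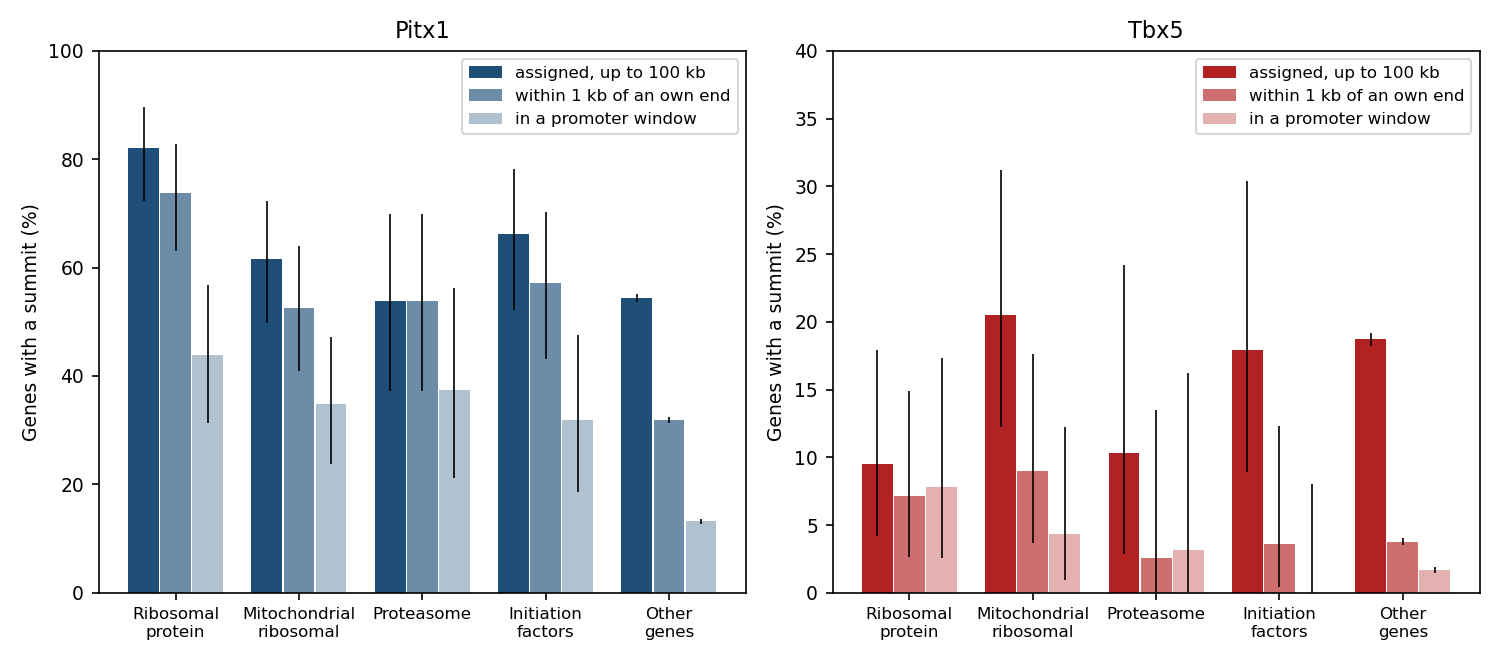
Share of genes (%) with a Pitx1 summit (left) or a Tbx5 summit (right) in 4 gene families and in the other protein-coding genes, for 3 ways of counting. Bars carry exact 95% intervals, and the axes of the panels differ. Near an own end the Pitx1 share is 73.8% for ribosomal protein genes and 31.9% for the other genes.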

How the data were processed

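Summits of 1 Pitx1 and 1 Tbx5 ChIP-seq sample, of 18 samples in the series, were analysed. The other samples are not analysed here. The submitters' processing notes list MACS2 2.1.1.20160309, HOMER, Bowtie2 2.2.6 and Bowtie 1.1.2 without saying what each did, and the build mm10. The deposited scores were read as −log10 q: the lowest, 1.31 and 1.42, lie just above 1.30, the −log10 of 0.05. A further deposited score and a pair of distances in the second Pitx1 list were not used. Input samples are in the series, but whether peaks were called against them, how reads were filtered and whether embryos were pooled is not given in the labels.

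Genes were the protein-coding genes of the RefSeq table of GRCm38.p6. A summit inside several genes went to the shortest. Starts and strands came from RefSeq promoter windows, which matched 64 of 84 members. Shares carry exact 95% intervals (scipy 1.17.1, Python 3.11.15). The scripts were tested on simulated data. The members, the compared families and the motifs were chosen with earlier results of these data known. Named were members with Tbx5 summits, with the 10 highest Pitx1 scores or the 5 largest numbers of summits, the stalk genes and Rpsa, the copies with l in the symbol, Rps27a and members without summits. Rps19, Rps9, Rps18, Rpl38 and the members named for the second list or for motifs were named after their values were seen.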

Additional observations from a re-analysis of the deposited data

How the results depend on the processing

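Of 31 alternatives to 7 results, 19 gave a value inside the 95% interval of the value reported and 12 did not. The share of members with a Pitx1 summit (82.1%) was 53.6% with scores at or above the list median, 25.0% with the second list and 25.0% with as many top summits as in the Tbx5 list. Other genes gave 37.8%, 26.2% and 18.7% in the same settings. With scores at or above the median, the Tbx5 share (9.52%) was 2.38% and the share of members' Pitx1 summits in the second list (20.7%) was 39.7%. The share of Pitx1 summits near a gene end (46.9%) was 34.5% within 500 bp and 65.2% with as many top summits as in the Tbx5 list. With the second list the median score (5.37) was 19.7, the share of Tbx5 summits beside a Pitx1 summit (54.5%) was 18.2%, and the density of 65.1 per Mb was 13.5. That density was 87.8 per Mb with assignment within 20 kb and 182 within 1 kb, where domains are shorter. Fewer summits entered the settings with higher scores or the second list. For the other values that left their interval, the cause was not tested. Counting summits whatever gene was nearer, and leaving out the 5 members with the most summits (60.4 per Mb), were chosen after seeing the data. With 1 sample per factor no sample could be left out. No paired analysis was possible because each factor has 1 sample.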

Other observations

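Pseudogenes of the ribosomal protein genes, many of which are copies of the messenger RNA inserted elsewhere in the genome without the promoter, were counted as well. RefSeq lists 318 pseudogenes named for a member (a member's symbol followed by ps). A Pitx1 summit lay inside or within 1 kb of 7 of them (95% interval 0.889 to 4.48%), against 3.68% (3.32 to 4.06) of other pseudogenes and 78.6% (68.3 to 86.8) of the members counted in the same way. Any pseudogene of a member under another name was counted with the other pseudogenes. How reads matching several copies were treated is not given, and its effect on these shares was not tested. The 7 were Rpl10-ps2, Rpl17-ps3, Rpl21-ps7, Rpl27a-ps1, Rpl28-ps2, Rpl31-ps20 and Rps15a-ps3, named after their values were seen. Tbx5 summits lay at 4 of the 318 (1.26%, 0.344 to 3.19), against 0.692% (0.540 to 0.874) of other pseudogenes.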
